A study of Mus musculus with 2 samples.

Results

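The genes described are Gzma, Gzmb, Gzmc, Gzmd, Gzme, Gzmf, Prf1, Serpinb9, Srgn and Ctla2a, found by their symbol in the platform annotation of the 2 chips of the Affymetrix Mu11k set, called subA and subB. Of these 10 genes, 7 were named by a probe set, out of 6137 genes named on the chips, and they gave 8 probe sets, 4 on each chip. SubA carried Gzmb, Gzmc, Gzmd and Serpinb9, and subB carried Gzma, Serpinb9, Srgn and Ctla2a, so that Serpinb9 was the only one of the genes read on both chips. Gzme, Gzmf and Prf1, the gene of perforin, had no probe set under their name, so their expression was not analysed here and they enter only through their promoter sequence. No probe set with several symbols included one of the 10 genes.

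Granzymes are serine proteases that cytotoxic lymphocytes store in secretory granules and release against target cells. Perforin opens a path for them into the target, the proteoglycan serglycin (Srgn) holds them in the granule, and the serpin Serpinb9 protects the cell that makes granzyme B from its own enzyme. Ctla2a is an inhibitor of cathepsin-like cysteine proteases that was first found in activated mouse T cells. CD8 T cells and NK cells are the best known users of these genes, and helper CD4 T cells can also express some of them. Mouse granzymes B, C, D, E and F lie in one cluster on chromosome 14, while Gzma lies on chromosome 13.

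The RNA came from CD4+ T cells of female B10.PL mice, purified from their lymph node and spleen. The mice carried a transgenic T-cell receptor for Ac1-11, a peptide of myelin basic protein (MBP), and the time in the labels is 48 h. The sample titles also hold the letters TCL after the time, whose meaning is not settled here. The series asks how cells stimulated with 4Y differed from cells stimulated with Ac1-11. All cells shared the strain and the transgene, and neither the age nor the number of animals is given in the labels. For each chip the data hold 1 array with deposited levels and 1 comparison with a baseline array, with no replicate, so that no test is possible and the precision of each value is limited by that number. The sample labels call the deposited arrays Ac1-11, whereas the comparison tables call the same levels 4Y (all 6584 values of subA and all 6595 of subB were identical). Which stimulus stands on which side is therefore unknown here, and each value is given as deposited against baseline array, each chip by itself.

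The sequences just before the annotated starts of the measured granzyme genes, with that of Gzme, are shown because they set out how alike the chromosome 14 genes are. Each is 250 bases long and read 5′ to 3′ on the coding strand, with the base next to the start last, from RefSeq promoters of GRCm38.p6. Capitals mark matches on either strand to TGANTCA (the AP-1 motif), TGTGGT (the Runx motif), TTCNNNGAA (the STAT motif) or TGACGTCA (the CRE motif).
Gzmb (chr14:56262335-56262584, minus strand): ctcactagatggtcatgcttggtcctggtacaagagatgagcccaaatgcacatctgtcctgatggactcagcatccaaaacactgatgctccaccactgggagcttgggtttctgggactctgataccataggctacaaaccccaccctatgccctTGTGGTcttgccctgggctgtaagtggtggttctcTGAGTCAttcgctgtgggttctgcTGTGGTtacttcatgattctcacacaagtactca
Gzmc (chr14:56234658-56234907, minus strand): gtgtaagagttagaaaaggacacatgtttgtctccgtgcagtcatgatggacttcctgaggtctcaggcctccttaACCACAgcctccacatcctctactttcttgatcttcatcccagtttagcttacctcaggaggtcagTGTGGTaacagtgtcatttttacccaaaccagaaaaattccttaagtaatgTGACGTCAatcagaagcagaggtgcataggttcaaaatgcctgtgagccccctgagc
Gzmd (chr14:56132594-56132843, minus strand): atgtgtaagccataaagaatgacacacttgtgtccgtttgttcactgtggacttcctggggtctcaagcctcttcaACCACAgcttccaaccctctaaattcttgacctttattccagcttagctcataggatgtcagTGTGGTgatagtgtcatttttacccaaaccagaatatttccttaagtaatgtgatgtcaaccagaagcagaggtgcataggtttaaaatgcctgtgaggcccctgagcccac
Gzme (chr14:56120626-56120875, minus strand): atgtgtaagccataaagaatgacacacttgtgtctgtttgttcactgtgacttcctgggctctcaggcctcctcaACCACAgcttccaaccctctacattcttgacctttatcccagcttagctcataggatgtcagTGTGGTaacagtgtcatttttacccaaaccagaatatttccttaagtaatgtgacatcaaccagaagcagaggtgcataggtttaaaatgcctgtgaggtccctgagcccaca
Gzma (chr13:113100982-113101231, minus strand): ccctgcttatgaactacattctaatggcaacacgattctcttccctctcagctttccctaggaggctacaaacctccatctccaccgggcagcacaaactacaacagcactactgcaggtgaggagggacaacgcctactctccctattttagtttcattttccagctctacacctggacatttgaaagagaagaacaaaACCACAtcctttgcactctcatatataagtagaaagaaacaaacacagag

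Over this window Gzmd and Gzme were identical at 238 of 250 aligned bases, or 95.2%. Gzmd was 82.4% identical to Gzmc and 88.2% to Gzmf, while Gzmb and Gzma gave no alignment of at least 150 bases with any of the other granzymes. The Runx letters were found before 8 of the 10 genes and in 8 of their 12 windows, since Ctla2a and Srgn have 2 each, against 4614 of all 32851 promoter windows of the same length. The 4 related genes Gzmc, Gzmd, Gzme and Gzmf all held 2 such matches, one in each orientation, and because of their likeness they are not separate cases. Gzmb also held 2 Runx matches, at bases 93 to 88 and 34 to 29 before its start, and an AP-1 match between them at bases 58 to 52. The AP-1 letters occurred in 6.75% of all windows, and the only other gene of the 10 to hold them was Ctla2a. The CRE letters, present in 1.55% of all windows, stood before Gzmc and Gzmf, and the STAT letters, present in 7.02%, before Ctla2a. A match is a description of the letters, not a binding site.

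On subA the granzyme genes Gzmb, Gzmc and Gzmd and the inhibitor gene Serpinb9 were all lower on the deposited array. Levels are average differences, the mean of perfect match minus mismatch signal over a probe set, and the baseline level is the deposited level minus the deposited change. A probe set counted as changed when the authors' deposited table gave a fold of at least 2 with an increase or decrease call and it was detected on at least 1 of the arrays. All 4 counted as lower, where 2.69% of the 3343 detected probe sets of subA counted as lower, 1.76% as higher and 4.46% as changed either way. Gzmc and Gzmd were called absent on the deposited array and were detected only through the baseline array, so they could pass only by being lower, and the count supports nothing about the genes as a group.

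Gzmb encodes granzyme B, which cuts its substrates after aspartate and activates caspases. Its level was 1844 on the deposited array and 3824 on the baseline array, and it was present on both. The fold in the authors' deposited table was 2.1 lower, just past the threshold, and 13 of 20 probe pairs were scored as decreased and 1 as increased. Gzmb was thus the gene of the 4 with the smallest fold. On subA, 149 of the 3343 detected probe sets had a lower log2 fold than Gzmb.

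Gzmd encodes granzyme D, whose physiological substrates are less well known. Its level was 174 on the deposited array, called absent, and 2078 on the baseline array. The authors' deposited table gives it as 12-fold lower with 16 of 20 probe pairs decreased and none increased, and 8 detected probe sets of subA had a lower log2 fold. Gzmd was detected only through the baseline array, where it was high, so its place among detected probe sets is only a description. Its probe set, u66472_f_at, carries the suffix that Affymetrix gives to probe sets matching a family of similar sequences. The signal can therefore not be assigned to Gzmd alone, and the share of Gzme or other close copies was not tested.

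Gzmc, the gene of granzyme C, had a level of 120 on the deposited array, called absent, and 912 on the baseline array. The authors' deposited table gives an approximate 9.7-fold decrease for it, against a ratio of the levels of 7.6. Of its 20 probe pairs 11 were decreased and none increased, the smallest number among the 4 genes. On the deposited array 4 of its pairs were positive and 3 negative, against 9 and 6 for Gzmd.

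Serpinb9, the granzyme B inhibitor, stood at 538 on the deposited array of subA against 2398 on the baseline array, and it was present on both. Its fold of 4.5 lower in the authors' deposited table rested on 18 of 20 decreased probe pairs and no increased pair. Only 12 of the 3343 detected probe sets of subA, Serpinb9 included, had as many decreased pairs. Among the 4 genes, Serpinb9 thus had the most decreased pairs. The median log2 fold of the 4 genes was -2.72, beside 0 for all detected probe sets of the chip, but Gzmc and Gzmd passed the filter only through the array on which they were high, so this median is a description and no sign of a shift of the group.

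**Figure D1:**
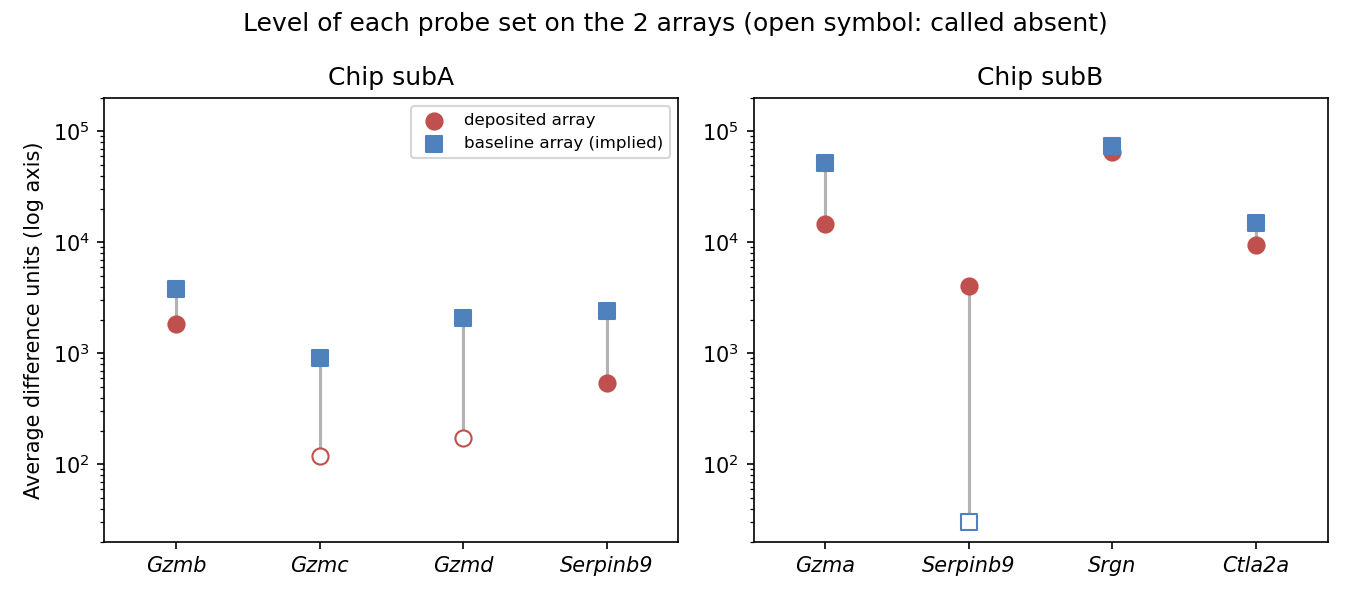
Level of each probe set, in average difference units on a log axis, on the deposited array (circles) and on the baseline array (squares), with open symbols where the array was called absent and 1 array per symbol. On subA all 4 genes lie lower on the deposited array, and on subB Gzma and Serpinb9 move apart in opposite directions.

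On subB the direction differed between genes: Gzma was lower on the deposited array, Serpinb9 was higher, and Srgn and Ctla2a did not count as changed. Thus 1 of the 4 probe sets counted as lower and 1 as higher, where 1.99% and 4.25% of the 1813 detected probe sets of subB did so, and 6.23% counted as changed either way. Here Serpinb9 was detected only through the deposited array, so it could pass only by being higher.

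Gzma encodes granzyme A, a trypsin-like enzyme that cuts after basic residues. Its level was 14620 on the deposited array and 51676 on the baseline array, and it was present on both. The authors' deposited table gives a fold of 3.5 lower, with 18 of 20 probe pairs decreased and none increased. Only 4 of the 1813 detected probe sets of subB, Gzma included, had as many decreased pairs, and 26 had a lower log2 fold. Markers of CD4 T cells were lower on the same array too. The summed level of the 3 measured on subB, Cd4, Cd3d and Cd3g, was 36698 on the deposited array and 60738 on the baseline array. All 3 had a decrease call, but only Cd3g passed the threshold of 2, with a decrease of 2.1 and 10 decreased pairs. The decreases of Cd4 and Cd3d, 1.4 and 1.8, stayed under that threshold. Of all detected probe sets of subB, 1.99% counted as lower. The share with a decrease call of any size is not given here, so the 3 calls say little by themselves. On subA the other 3 measured, Cd3e, Cd5 and Cd28, summed to 16000 and 13512, but went both ways. Cd3e was at 13557 and 9955, while Cd28 was at 1818 and 2987 with a decrease call. The part of this in the Gzma result was not tested, and fewer cells of a type cannot be told from less RNA per cell.

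Serpinb9 was read on subB by another probe set, U96700_s_at. Its level was 4011 on the deposited array and 30 on the baseline array, which was marked absent. The authors' deposited table gives an approximate 10.6-fold increase, with 16 of 20 probe pairs increased and 1 decreased, and 10 of the 1813 detected probe sets, Serpinb9 included, had as many increased pairs. Since Serpinb9 was detected only through the deposited array, where it was high, its place among detected probe sets is only a description. The ratio of the levels would be 133.7, but a baseline at background gives such a ratio no firm size. The same gene was thus lower on the deposited array of subA and higher on that of subB, with 18 decreased pairs in the first case and 16 increased pairs in the second. The log2 folds were -2.17 and 3.41. Serpinb9 was not alone in this: of 10 genes with an increase or decrease call on both chips, Serpinb9 included, 10 were called decreased on subA and increased on subB. The opposite signs are therefore not read as a property of Serpinb9. For scale, probe sets of the same gene on 1 chip differed with an SD per probe set of 0.46 over 251 genes of subA and 0.62 over 51 genes of subB.

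Srgn, whose product serglycin packs granzymes into the granule, had a level of 65669 on the deposited array and 74191 on the baseline array. It was present on both, with 19 of 20 probe pairs positive on the deposited array. Its fold in the authors' deposited table was 1.1 lower with no difference call, and 2 probe pairs were scored as increased and 0 as decreased. The lower level and the 2 increased pairs pointed in different directions, and neither made a call.

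Ctla2a had a level of 9551 on the deposited array and 15009 on the baseline array, present on both. The authors' deposited table gives it a fold of 1.6 lower and a decrease call. In this probe set 8 of 20 pairs were decreased and none increased, so that it fell short of the threshold by size alone. Ctla2b, its neighbour and near copy, was called absent on both arrays, at 147 and 230. The median log2 fold of the 4 probe sets on subB was -0.41, beside 0 for all detected probe sets. Serpinb9 passed the filter only through the array on which it was high, so this median too is only a description. With the running median of probe sets of like level subtracted, Gzma was at -1.54 in place of -1.81. By the same step Ctla2a was at -0.54 in place of -0.68, and Srgn at 0.13 in place of -0.14. With the sign of subB turned, Gzma and Ctla2a would be higher and Serpinb9 lower, so the direction of granzyme A relative to granzymes B, C and D depends on how the chips are read against each other.

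**Figure D2:**
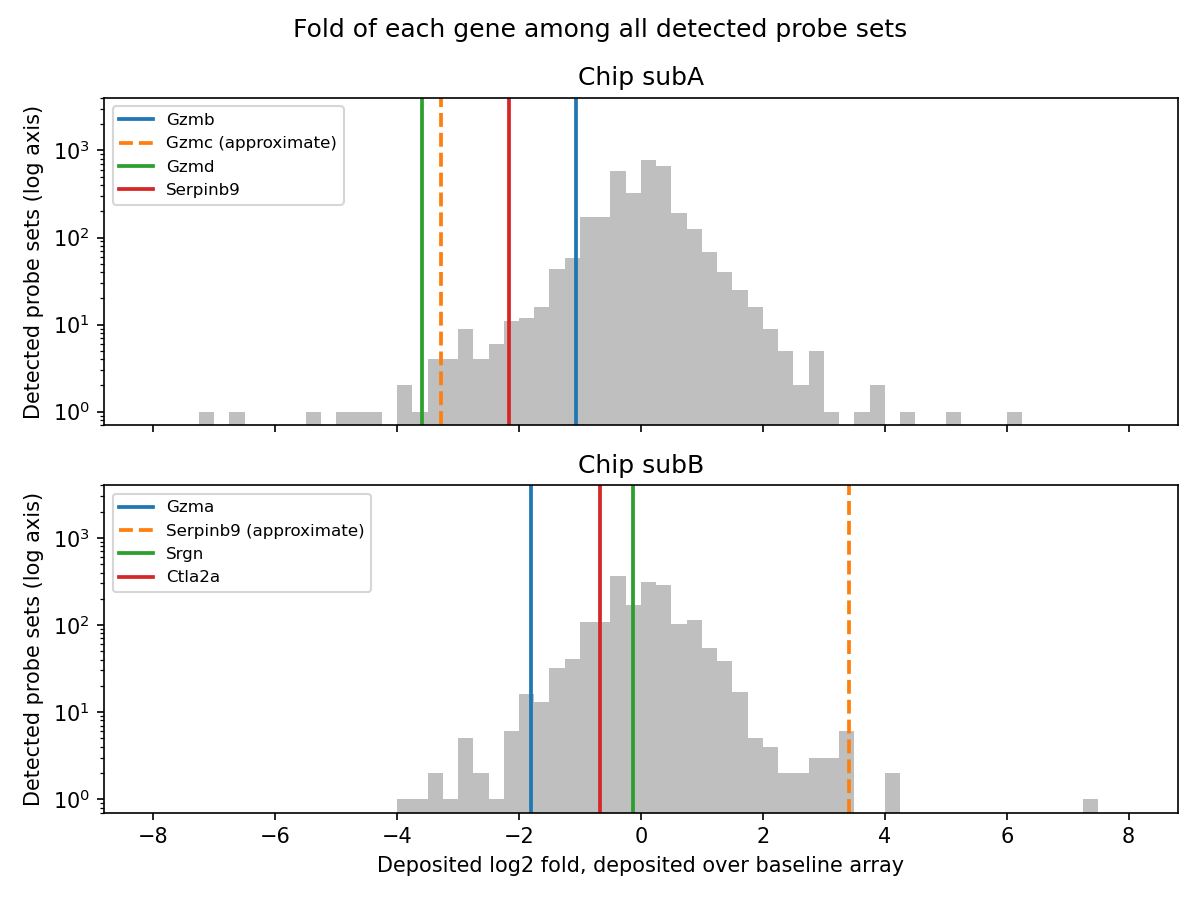
Number of detected probe sets (log axis) by deposited log2 fold of the deposited over the baseline array, for each chip, with a line for each of the 4 genes (dashed where the fold is approximate). On subA the lines lie between -3.58 and -1.07, and on subB Gzma lies at -1.81 and Serpinb9 at 3.41, with Ctla2a and Srgn nearer to 0.

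**Figure D3:**
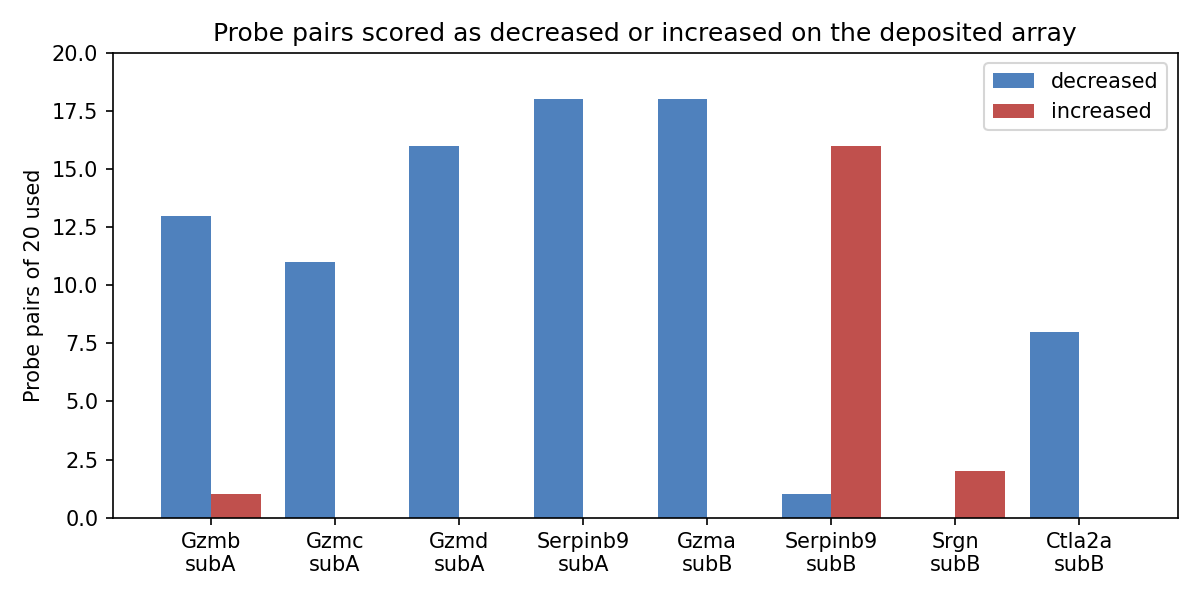
Probe pairs of the 20 used that were scored as decreased or increased on the deposited array, for each gene and chip. Serpinb9 has 18 decreased pairs on subA and 16 increased pairs on subB, and Gzma has 18 decreased pairs.

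Few genes that process or carry granzymes could be read. Of 17 genes for granule processing and trafficking, 9 were measured on subA and 7 detected, of which 1 counted as higher and none as lower. With 1.76% and 2.69% of all detected probe sets counted as higher and lower, so short a list says little either way. The 1 was Ctsh, a cathepsin able to process granzyme precursors, with 2173 on the deposited array against 401 on a baseline marked absent, 5.4-fold higher in the authors' deposited table. Detected only through the deposited array, Ctsh could pass only by being higher. Ctsc, the dipeptidyl peptidase that activates granzymes, had levels of 5200 and 4122 by its detected probe set, a fold of 1.3 higher without a difference call. The granule membrane gene Lamp1 stood at 3696 and 2812, and the sorting and fusion genes Ap3b1 and Stxbp2 had folds of 1.3 lower and 1.1 higher. On subB 3 of the 17 were measured and 1 counted, as lower. Of all detected probe sets of subB, 1.99% counted as lower and 6.23% as changed either way, so this list too says little. The 1 was Ctsl, a cathepsin that the Ctla2a protein inhibits. By 1 of its 2 probe sets it was lower by an approximate 3.2-fold, from 755 to a level below 0. In that probe set 9 pairs were decreased and 3 increased. It was called absent on the deposited array and detected only through the baseline array, so it could pass only by being lower. The other probe set was absent on both arrays. Calr, a chaperone also found in cytotoxic granules, and Lamp1 had folds of 1.3 higher and 1.0 lower on subB.

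Of 5 other granzymes and granzyme-like genes, 1 was measured on each chip. Gzmm was called absent on both arrays of subA, at 316 and 77, and Gzmg on both arrays of subB, at -89 and 61. Among granzyme targets and other death effectors, 6 of 12 were detected on subA and only Fasl, the other killing route of T cells, counted, as lower, with 898 against 2288 and 13 of its pairs decreased. Of all detected probe sets of subA, 2.69% counted as lower and 4.46% as changed either way, so the count in so short a list is no result about its genes. Lmnb1, a nuclear lamina substrate of granzymes, had a decrease call at 1.6-fold lower, and Set, a target of granzyme A, had folds of 1.1 higher and 1.3 lower by its 2 probe sets. Apex1 was at 754 and 1447, 1.9-fold lower without a difference call, and Parp1 was 1.0 lower. As a description, the median log2 fold of the 6 detected genes of this list was -0.53. On subB 1 of the 12, Hmgb2, was detected and did not count, where 6.23% of all detected probe sets did. Of 3 detected serpins and cystatins on subA none counted, which is no result about them where 4.46% of all detected probe sets did. Serpinb6a was at 1.2 higher, Cst3 at 1.1 higher and Cstb at 1.0 lower.

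Of 19 regulators of granzyme genes 11 were measured and 8 detected on subA, and none of these counted as changed, which is no result about them where 4.46% of all detected probe sets did, nor did the 1 detected on subB, Stat5b. Prdm1, which encodes the transcription factor Blimp-1 and is named because its value was seen, had an increase call at 1.7-fold higher, with 2015 against 1254. Receptor and signal genes of interleukin-2, a cytokine that raises granzyme expression, had levels of 7129 and 8745 for Il2ra, 6223 and 5682 for Il2rb, and 4453 and 6244 for Stat5a. Junb, an AP-1 subunit, had levels of 5939 and 6458. The folds of these 4 lay between 1.4 lower and 1.1 higher in the authors' deposited table.

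The label CD4+ T cell was checked against markers, and Cd4 itself was present on both subB arrays, at 19607 and 28344. Markers of the classical granzyme-expressing cells were called absent, apart from Fcgr3. Cd8a was the 1 of 2 CD8 markers measured and had levels of -1568 and -1337, called absent on both subB arrays. Of 10 NK cell markers 4 were measured, and Klrb1c, Klra4 and Klra8 were called absent on both arrays of their chip. The fourth, Fcgr3, which myeloid cells also express, was called present at 190 on the deposited subA array. With values below 0 taken as 0, the NK markers summed to 201 and 83 on subA and to 279 and 134 on subB in deposited and baseline array. On subA the deposited sum came mostly from Fcgr3 and the baseline sum from Klrb1c alone, and on subB both sums came from Klra8 alone. These sums give no direction. On subA Fcgr3 was higher and Klrb1c lower on the deposited array, and on subB Klra8 was higher and Klra4 lower. Of the macrophage and dendritic cell markers Lyz2 had levels of 5294 and 2286 on subA with no difference call. Its fold in the authors' deposited table was 6.2 higher, more than the ratio of these levels. The other detected markers were lower on the deposited array, Cd68 at 633 and 707 on subA and Cd14 at 1720 and 2809 on subB. Mpeg1 on subB, detected only through the baseline array, was at 188 and 368. None of these had a difference call. The summed level of that list was 5969 and 2993 on subA, mostly from Lyz2, and 1908 and 3177 on subB. B cell markers summed to 4633 and 5690 on subA and to 2820 and 2118 on subB, mostly from Ighm, and those of mast cells and neutrophils to 74 and 362 on subA and to 3430 and 2696 on subB. Every mast cell and neutrophil probe set was called absent on the deposited arrays. Only S100a8 on subB had a baseline not marked absent, so these sums do not show that such cells were present. The part of these cells in the granzyme values was not tested.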

How the data were processed

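Biotinylated cRNA was hybridised to the Mu11k chips, per the labels. The authors deposited array intensity values in average difference units, and, per the file headers, signed folds, presence calls, difference calls and probe pair counts of an Affymetrix comparison of 2 arrays. Software version, scaling and noise settings are not given in the sources used here.

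The baseline level was computed as level minus change, and an asterisk beside a baseline was taken to mean absent. Folds were used as deposited, approximate ones included. Names came from the platform annotation, updated by Entrez ID to RefSeq genes of GRCm38.p6. Backgrounds exclude control probe sets, 55 on each chip. Every probe set of the 10 genes is named, as are, from related lists, changed genes and up to 4 detected unchanged ones with a high level. Members and lists were chosen with earlier results of these data known. Promoter windows were aligned globally with free end gaps. The planned comparison of granzyme proteins was not run. The fold threshold, level correction, motif search and alignment were tested on simulated data. The use of difference calls and approximate folds in the counts was not tested in this way. Columns of other samples numbered 0. Alternatives covered thresholds, calls, detection, floors, centring, a running median over 300 probe sets and the sign of subB. Python 3.11.15, pandas 2.3.3, NumPy 2.4.6, Biopython 1.88 and matplotlib 3.10.9 were used.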

Additional observations from a re-analysis of the deposited data

Results flagged for a closer look

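Serpinb9 moved in opposite directions on the 2 chips under the same named comparison, as did 10 of 10 genes with a call on both chips, with a log2 fold of -2.17 on subA and 3.41 on subB. It had 18 of 20 probe pairs decreased by the subA probe set and 16 of 20 increased by the subB probe set. The difference was not tested, since each chip had 1 array per condition, and the subB fold is approximate.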

How the results depend on the processing

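No paired analysis was possible because no group had more than 1 array. With detection required on both arrays, 2 probe sets in place of 4 counted as lower on subA, and 0 in place of 1 as higher on subB. The latter count was also 0 with approximate folds left out, and the subA median log2 fold was then -2.17 over 3 genes. With a fold threshold of 1.5, 2 probe sets counted as lower on subB, the added one being Ctla2a. With the sign of subB turned, its median was 0.41. Of 40 single values under floors, centring and level correction, 36 moved by less than the SD between probe sets of a gene. The others were Gzmc at -2.19 with a floor of 200, and Serpinb9 on subB at 6.33, 5.33 and 4.33 with floors of 50, 100 and 200. Many of the 40 could not move. The median log2 fold of detected probe sets was 0 on both chips, so centring changed nothing. Level correction left the subA values as they were. Floors leave levels above them unchanged and cannot turn a sign. The 36 are therefore no sign that the values are robust. None of the called values turned its sign, and Srgn, which was not called, went from -0.14 to 0.13 with level correction. Level correction and the sign of subB for counts, floors for counts and medians, and approximate folds for medians, were added after the data were seen. Signal near background limits the folds of Gzmc, Gzmd and Serpinb9 on subB.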

Other observations

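Close relatives of Serpinb9 had no difference call on subA. Their probe sets were chosen after their values were seen. The probe set named Serpinb9g had levels of 1935 on the deposited array and 1724 on the baseline array, a fold of 1.1 higher without a difference call in the authors' deposited table. A probe set shared by 4 relatives (Serpinb9e, Serpinb9f, Serpinb9g and Serpinb9h) was called absent on the deposited array, at 401 against 536, a fold of 1.2 lower. A probe set shared by 3 of them stood at 154, called present, against 54 on a baseline marked absent. Its fold was an approximate 2.1 higher with 5 pairs increased and 1 decreased, also without a difference call.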
